A study of Rattus norvegicus with 20 samples.

Results

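Gap43, Basp1, Stmn4, Marcks, Dpysl2 and Sprr1a encode proteins of growing or regenerating axons, and their transcripts were followed in rat dorsal root ganglia after 2 kinds of sciatic nerve injury. All probe sets annotated to 1 of these 6 genes alone were taken, so that the 6 of 4736 genes named on the array came with 13 of the 8740 probe sets tested: 1 each for Gap43, Basp1 and Stmn4, 2 each for Dpysl2 and Sprr1a, and 6 for Marcks. These ganglia house the sensory neuron cell bodies and were taken on the operated side. Each sample of total RNA was hybridised to an Affymetrix rat array, and the 20 arrays fell into 8 groups. Rats with chronic constriction injury (CCI), in which loose ties are placed around the nerve, were sampled at 14 days (n = 3) and 21 days (n = 3). Rats of the Seltzer model, which the labels describe as a transection of the sciatic nerve, were sampled at 14, 21 and 50 days, with 2, 3 and 2 arrays. Sham-operated rats were sampled on the same days with as many arrays. The labels give no strain, sex, age or ganglion level, and they do not say that samples of a group came from separate rats, so p-values here rest on a spread between samples that could be technical.

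A growth cone is the moving tip of an axon, where new membrane, actin and microtubules are assembled. Gap43, Basp1 and Marcks are related in mode of action: each binds the inner face of the plasma membrane, is a substrate of protein kinase C, binds calmodulin, and acts on the actin cortex. Stmn4, a member of the stathmin family, binds tubulin, and Dpysl2 (also called CRMP2) promotes microtubule assembly and relays semaphorin signals. Sprr1a was first known as a protein of the cornified envelope of skin and is induced in mouse sensory neurons after nerve injury. In peripheral sensory neurons, a cut or crushed axon is known to switch on a set of regeneration-associated genes in the cell body, of which Gap43 is the textbook example.

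Of the 6 genes, 3 had a promoter sequence in the RefSeq-derived table used here (build GRCr8), namely Basp1, Marcks and Sprr1a. The 250 bases before the start of Sprr1a (chr2:180752626-180752875, minus strand) and of Basp1 (chr2:77594298-77594547, minus strand) are shown as the most unlike of the 3: the first holds the motifs searched and the second is rich in G and C. AP-1 is the Jun and Fos family of transcription factors. Capitals mark matches to TGANTCA, the AP-1 motif, or TATAAA, the TATA box, searched on both strands.
Sprr1a: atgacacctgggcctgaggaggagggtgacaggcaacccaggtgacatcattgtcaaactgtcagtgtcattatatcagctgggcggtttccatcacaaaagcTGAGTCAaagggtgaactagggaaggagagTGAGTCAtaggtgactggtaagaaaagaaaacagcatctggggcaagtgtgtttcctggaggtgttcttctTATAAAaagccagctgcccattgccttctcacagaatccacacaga
Basp1: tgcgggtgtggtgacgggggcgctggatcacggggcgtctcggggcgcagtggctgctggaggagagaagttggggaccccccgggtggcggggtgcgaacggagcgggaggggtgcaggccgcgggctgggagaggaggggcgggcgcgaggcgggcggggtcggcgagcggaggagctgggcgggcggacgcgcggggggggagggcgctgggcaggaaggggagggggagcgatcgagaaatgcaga
The Sprr1a window holds 2 AP-1 motifs, which begin 147 and 117 bases before the start, and 1 TATA box at 46 bases, and none of the 3 matches overlap. The Basp1 and Marcks windows (chr20:42245883-42246132 for Marcks) hold neither. Across 33469 rat promoter windows of the same length, 6.34% held TGANTCA and 12.9% held TATAAA. The GC content was 76.8% for Basp1, 55.6% for Marcks and 48.4% for Sprr1a, against a median of 51.2% over all windows. These are matches of letters, and no binding was measured.

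Values are deposited intensities on a linear scale, and some fall below 0. The step that gave negative values is not stated in the labels or the files. The background level of an array was the size that 95% of its negative values stay within. It reached 766 and 599 on Seltzer 50-day replicates 1 and 2 and 499 on the first CCI replicate of 21 days, against 169 to 326 elsewhere. Only 3 of the 13 probe sets were above background on all 20 arrays: Gap43, Dpysl2 rc_AA875444_at and Sprr1a L46593cds_at. Another 6 were above it on no array, namely 5 of Marcks and 1 of Dpysl2. Of all probe sets, 5.29% were above background on every array and 67.8% on none. All 13 markers of sensory neurons that were measured were above background on at least 10 of the 20 arrays, as the tissue label calls for. On the Seltzer 50-day arrays, 8.92% and 11.0% of probe sets were above background, against 12.8% or more on every other array, and the ratio of the 3' to the middle GAPDH control signal was 8.89 and 5.10, against at most 2.85 on every other array. The 4 Seltzer and sham arrays of 14 days also stood apart, lying together below or above the other 16 arrays in 62 and 144 probe sets, the lower ones including Marcks rc_AA899253_at and Dpysl2 rc_AA875444_at. Changes are differences of log2(value + 16) with negative values set to 0, tested with limma and adjusted over all 8740 probe sets at a threshold of 0.05.

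Gap43 was higher after both injuries, and its intensity exceeded that of sham at every day. CCI ganglia had intensities of 2630.4, 2364 and 2879 at 14 days and 2799, 2552 and 3036 at 21 days. Seltzer ganglia had 3048 and 2338 at 14 days, 1921, 2566 and 3287 at 21 days and 1742 and 1715 at 50 days. Sham ganglia had 1132 and 1362 at 14 days, 657, 1402 and 1223 at 21 days and 1081 and 1333 at 50 days. All 13 arrays of injured ganglia lay above all 7 sham arrays, the lowest injured value being 1715 and the highest sham value 1402. Of 8740 probe sets, 9 (0.103%) separated the arrays in this way and 2 the other way round. The others of the 9 were Mmp16, Gal, Ctss, Npy, Atf3, Reg3b, Ptpro and Vip, and Gap43 was the only one of them above background on all 20 arrays.

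Averaged over days, Gap43 rose by 1.24 (SE 0.19, limma adjusted p = 0.00264) in CCI against sham and by 0.96 (SE 0.17, limma adjusted p = 0.00527) in Seltzer against sham. Each of the 6 CCI arrays and each of the 7 Seltzer arrays exceeded the sham mean of its day. Both calls held under all 32 alternative settings, which ran from 1.07 to 1.34 for CCI and from 0.85 to 1.18 for Seltzer. In CCI against sham 3 of the 13 probe sets passed the threshold, where 2.29% of all probe sets did, and in Seltzer against sham 2 of 13 passed, where 4.38% did.

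By group mean, Gap43 was highest in CCI at 21 days (2796 ± 242, SD, n = 3), followed by Seltzer at 14 days (2693 ± 502, n = 2), CCI at 14 days (2625 ± 258, n = 3) and Seltzer at 21 days (2591 ± 683, n = 3). The ranges of these 4 groups overlap, so their order is within the spread. Seltzer at 50 days followed (1729 ± 18.8, n = 2) with a range that lies below that of each of the 4 and above that of each sham group. The sham groups came last and overlap one another, at 1247 ± 163 at 14 days (n = 2), 1094 ± 389 at 21 days (n = 3) and 1207 ± 178 at 50 days (n = 2).

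The single-day ratios of Gap43 were 2.11-fold for CCI over sham at 14 days and 2.68-fold at 21 days, and 2.15-fold, 2.43-fold and 1.44-fold for Seltzer over sham at 14, 21 and 50 days. Of these days only CCI at 21 days passed the threshold on its own (1.41, SE 0.25, limma adjusted p = 0.0168). That call ended when the arrays were centred on their median (adjusted p = 0.122), when only the groups compared were fitted (adjusted p = 0.534), and without CCI 21-day replicate 1 (adjusted p = 0.0563) or replicate 3 (adjusted p = 0.0544). The others had limma adjusted p of 0.0685 for CCI at 14 days and 0.536, 0.0595 and 0.299 for Seltzer at 14, 21 and 50 days. No difference between CCI and Seltzer was detected in Gap43: averaged over 14 and 21 days the difference was 0.06, with a 95% interval from -0.35 to 0.46. The CCI effect at 21 days exceeded that at 14 days by 0.34, with an interval from -0.47 to 1.15.

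**Figure D1:**
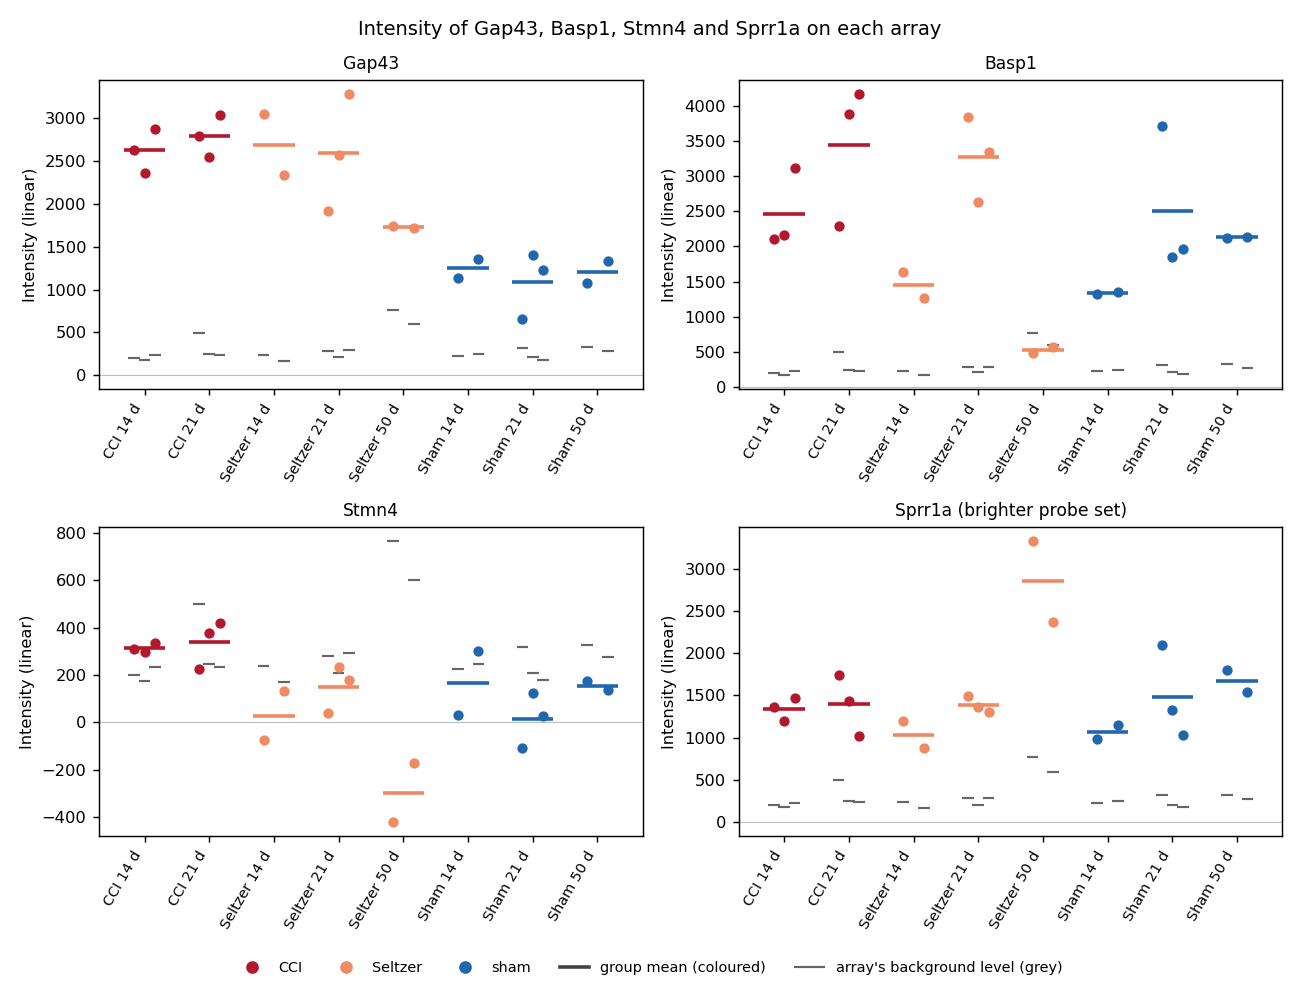
Intensity on a linear scale of Gap43, Basp1, Stmn4 and the brighter Sprr1a probe set on each of 20 arrays, in the 8 groups of surgery and day (d, days). Points are arrays, coloured bars are group means and grey dashes are the background level of each array; every injured array lies above every sham array for Gap43, Basp1 lies below background in Seltzer at 50 days, and Stmn4 lies near background throughout.

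Basp1, a membrane protein much like Gap43 in its action, showed no call in the means over days and a fall in Seltzer at 50 days. CCI ganglia had 2113, 2161 and 3112 at 14 days and 2289, 3886 and 4171 at 21 days. Seltzer ganglia had 1639.7 and 1263 at 14 days, 3839.7, 2638 and 3343 at 21 days and 479.9 and 564 at 50 days. Sham ganglia had 1323 and 1359 at 14 days, 3711, 1855 and 1958 at 21 days and 2122 and 2139.8 at 50 days. At 14 days the CCI arrays lay above both sham arrays, at 21 days the groups overlap, and at 50 days the Seltzer arrays lay below both sham arrays and below their own background.

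The mean change of Basp1 in CCI against sham was 0.66 (SE 0.21, limma adjusted p = 0.182), and 5 of the 6 CCI values exceeded the sham mean of their day. Sham 21-day replicate 1 bore on it: at 3711 it was well above the other 2 sham arrays of that day, and without it the mean change was 0.82 (limma adjusted p = 0.0342). The call was gained as well without the 21-day replicate 1 arrays of all groups (0.96, limma adjusted p = 0.0025) and with array weights (0.88, limma adjusted p = 0.00169). In Seltzer the mean change was -0.49 (SE 0.19, limma adjusted p = 0.188), and without the Seltzer 50-day arrays it turned to 0.27. The Seltzer mean passed with quantile normalization (-0.57, limma adjusted p = 0.049) and without the 21-day replicate 1 arrays (-0.42, limma adjusted p = 0.0386). At 50 days alone Basp1 fell by 2.00 (SE 0.34, limma adjusted p = 0.00194) and was at least 3.15-fold lower in Seltzer than in sham, with the background level in place of the dimmer values. This was 1 of 2 member calls at 50 days, where 15.9% of all probe sets passed. The low share of probe sets above background and the high GAPDH ratio moved with the same 2 arrays, and their part in the fall was not tested.

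Stmn4 was close to background. CCI ganglia had 311, 296 and 335 at 14 days and 224, 379 and 418 at 21 days, of which 5 of 6 were above their background level. Seltzer ganglia had -73.8 and 132 at 14 days, 39.5, 235 and 179 at 21 days and -421 and -172 at 50 days, of which 1 was above it. Sham ganglia had 29.9 and 302 at 14 days, -109, 124 and 27.1 at 21 days and 173 and 135 at 50 days, of which 1 was above it. The CCI and sham arrays overlap at 14 days through sham replicate 2 and do not at 21 days. The mean change in CCI was 2.18 (SE 0.71, limma adjusted p = 0.198), and all 6 CCI values exceeded the sham mean of their day; its size depends on the number added, with 1 of 7 sham arrays above background. At 21 days the CCI ganglia were at least 1.44-fold above sham, and at 14 days, where 1 of the 2 sham arrays was above background, the group means were 314 ± 19.5 in CCI (SD, n = 3) and 166 ± 192 in sham (SD, n = 2). In Seltzer the mean change was -1.04 (limma adjusted p = 0.462), and 0.15 without the 50-day arrays.

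Marcks, the myristoylated substrate of protein kinase C that ties actin to the membrane, was above background in 1 of its 6 probe sets. Probe set rc_AA899253_at had 1614, 1177 and 2038 in CCI ganglia at 14 days and 1407, 1918 and 2023 at 21 days. Seltzer ganglia had 94.9 and 86.2 at 14 days, 1125, 1437 and 1203 at 21 days and 3717 and 3456 at 50 days. Sham ganglia had 46.8 and 56.6 at 14 days, 622, 1361 and 1427 at 21 days and 2634 and 1862 at 50 days. The Seltzer and sham arrays of 14 days, below background on all 4, stood apart from the other 16, the lowest of which was 622. The CCI arrays of 14 days lay within the range of the later arrays.

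In this probe set the CCI mean rose by 2.63 (SE 0.22, limma adjusted p = 1.56e-05), and each of the 6 CCI values exceeded the sham mean of its day. This mean joins unequal days. At 14 days the change was 4.55 (SE 0.32, limma adjusted p = 2.23e-06), and the CCI ganglia were at least 6.66-fold above sham, with the background level in place of the sham values. Of the 13 probe sets 3 passed at 14 days, where 2.78% of all did, 1 of them Marcks rc_AA925762_at, above background on no array. At 21 days the ratio of rc_AA899253_at was 1.65-fold (0.72, SE 0.29, limma adjusted p = 0.35). On that day 2 other probe sets of the 13 passed, Gap43 and Marcks rc_AA859896_at, where 0.927% of all did. The latter was above background on no array. For rc_AA899253_at the CCI effect at 21 days minus that at 14 days was -3.84 (SE 0.43, limma adjusted p = 0.000207). It was 1 of 3 member calls in a comparison where 1.8% of all probe sets passed. With the 7 sham arrays of all days taken as 1 group, the change at 14 days was 1.40, the CCI mean was 1.48 (limma adjusted p = 0.704) and neither passed. In that fit the differences between sham days count as spread.

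In Seltzer ganglia no such change was called. At 14, 21 and 50 days the Seltzer changes of rc_AA899253_at were 0.66, 0.22 and 0.69, with limma adjusted p of 1, 0.99 and 0.216. At 14 and at 21 days 0 of the 13 probe sets passed in limma, where 0.206% and 0.378% of all did, and 3 and 2 of them had an unadjusted p under 0.05. CCI exceeded Seltzer by 2.19 (SE 0.22, limma adjusted p = 0.000146) averaged over 14 and 21 days, 1 of 2 member calls where 0.927% of all passed. The difference lay at 14 days (3.90, SE 0.32, limma adjusted p = 1.12e-05, at least 7.85-fold), where 2 of 13 passed against 1.75% of all, and at 21 days it was 0.49 (limma adjusted p = 0.59), where 0 of 13 passed against 0.114% of all and 1 had an unadjusted p under 0.05.

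Among sham ganglia alone the same probe set differed between days (F test, limma adjusted p = 2.84e-06). The difference of 14 days from the mean of 21 and 50 days was -4.52 (SE 0.30, limma adjusted p = 1.36e-06), a contrast added after the values were seen. By the F test 4 of the 13 probe sets differed over the sham days, against 8.48% of all, and by the contrast 4 of 13, against 3.04%. In both tests the 4 were Dpysl2 rc_AA875444_at and Marcks rc_AA899253_at, rc_AA859896_at and rc_AA925762_at. Of these, rc_AA859896_at and rc_AA925762_at were above background on no array. Gap43 did not pass (F test, limma adjusted p = 0.898).

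The other 5 Marcks probe sets were above background on none of the 20 arrays. Of these, rc_AA955167_r_at was below 0 on every array, between -3859 and -778, and rc_AI176597_at was below 0 on every array too, as were 7.04% of all probe sets. No probe set had a lower median than rc_AA955167_r_at: it was the lowest of all 8740 on 10 arrays and among the 10 lowest on all 20. In Affymetrix naming, rc marks the reverse complement of an expressed sequence tag, r a probe set picked under relaxed rules, and s one that matches several similar transcripts. Both rc_AA955167 sets come from 1 tag, and rc_AA955167_s_at lay between -543 and 142.

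Among the dim sets 2 passed in single comparisons, although their values carry no level. Probe set rc_AA859896_at had 92.6, 32.4 and 30.1 in CCI ganglia at 21 days and -24.3, -1.97 and -20 in sham ganglia of that day (1.96, SE 0.34, limma adjusted p = 0.014). Probe set rc_AA925762_at had 0.992, 5.42 and -22.6 in CCI ganglia at 14 days and 18.5 and 11.1 in sham ganglia of that day (-0.76, SE 0.17, limma adjusted p = 0.0259). All these values are below background, where the log2 change is set by the number added: the first was 5.52 with 1 added and 0.81 with 64 added, where it no longer passed (limma adjusted p = 0.0547). It also ended without sham 21-day replicate 3 (limma adjusted p = 0.0507). The second ended without CCI 14-day replicate 1 (limma adjusted p = 0.0987) or 3 (limma adjusted p = 0.107) or sham 14-day replicate 1 (limma adjusted p = 0.306).

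Of 17 pairs of probe sets of the same member gene, 5 differed in the CCI effect, where 1.10% of all 3281 same-gene pairs on the array did. All 5 set rc_AA899253_at against a Marcks probe set that was above background on no array, by 2.34 to 4.23, so none of the 5 compares measured levels on both sides. In the Seltzer effect 0 of 17 pairs differed by limma, where 1.77% of all pairs did, and 7 of the 17 had an unadjusted p under 0.05. What the other 5 sets match in the genome was not looked up here.

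**Figure D2:**
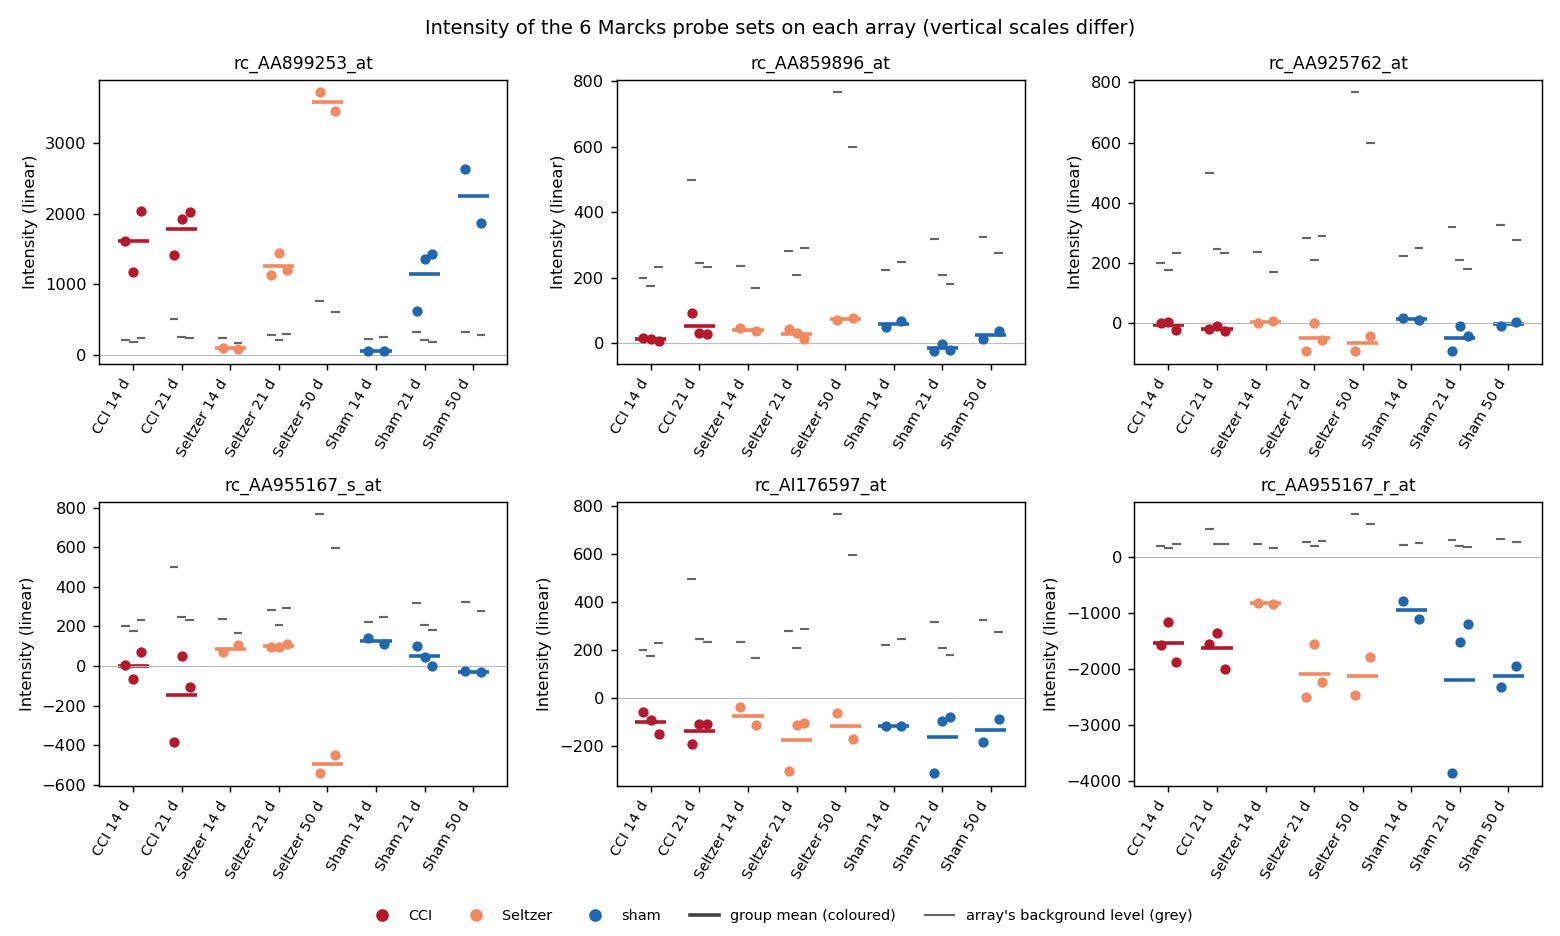
Intensity on a linear scale of the 6 Marcks probe sets on each of 20 arrays, 1 panel per probe set with its own vertical scale, in the 8 groups of surgery and day (d, days). Points are arrays, coloured bars group means and grey dashes each array's background level; rc_AA899253_at is far above background except in Seltzer and sham at 14 days, and the other 5 sets lie below it on every array.

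Dpysl2, which moves tubulin into growing microtubules, had the same 14-day step at a smaller size. Probe set rc_AA875444_at had 1141, 1138 and 921 in CCI ganglia at 14 days and 1037, 1280.1 and 1015 at 21 days. Seltzer ganglia had 288 and 226 at 14 days, 1181, 1385 and 815 at 21 days and 875 and 709.8 at 50 days. Sham ganglia had 359 and 432 at 14 days, 1297, 1037 and 957 at 21 days and 1497 and 1476 at 50 days. As for Marcks, the Seltzer and sham arrays of 14 days (226 to 432) lay below all 16 others, the lowest of which was 710. Unlike Marcks, they were above background.

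At 14 days CCI exceeded sham 2.70-fold (1.39, SE 0.21, limma adjusted p = 0.00206) and Seltzer 4.16-fold (1.99, SE 0.21, limma adjusted p = 0.000107). At 21 days the CCI and Seltzer arrays overlap with sham, with changes of 0.02 each. The CCI effect at 21 days minus that at 14 days was -1.37 (SE 0.28, limma adjusted p = 0.0255). The mean over days rose by 0.71 in CCI (SE 0.14, limma adjusted p = 0.0164) and fell by 0.49 in Seltzer (SE 0.13, limma adjusted p = 0.0426). CCI exceeded Seltzer by 1.00 over 14 and 21 days (SE 0.14, limma adjusted p = 0.00264). At 50 days Seltzer was 1.89-fold below sham (-0.90, SE 0.23, limma adjusted p = 0.019), on the same arrays as the fall of Basp1. With all 7 sham arrays as 1 group none of the calls of this probe set against sham held: CCI differed from sham by 0.25 at 14 days and by 0.27 in the mean (limma adjusted p = 0.901). Differences between the sham days count as spread in that fit. The Seltzer mean ended under 21 of 32 alternatives, among them the 50-day arrays left out, where it was -0.29.

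Single arrays bore on these Dpysl2 calls too. The CCI mean ended without sham 14-day replicate 1 (0.64, limma adjusted p = 0.099), and also with the arrays centred on their median (limma adjusted p = 0.122) and with the dimmest probe sets left out (limma adjusted p = 0.0539). The day difference ended without any 1 of CCI 14-day replicates 1 and 2, CCI 21-day replicates 1 and 3, sham 14-day replicate 1 and sham 21-day replicate 1 (limma adjusted p of 0.0529 to 0.133). It ended too with median centring (limma adjusted p = 0.0548), with the dimmest left out (limma adjusted p = 0.0712) and without the 21-day replicate 1 arrays of all groups (limma adjusted p = 0.099). The fall at 50 days ended without Seltzer replicate 2 (-0.75, limma adjusted p = 0.114) or without either sham array (limma adjusted p = 0.082 and 0.0866).

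The second Dpysl2 probe set, Z46882cds_at, was above background on no array, with values between -142 and 22, so it measured no change against which the first could be set.

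**Figure D3:**
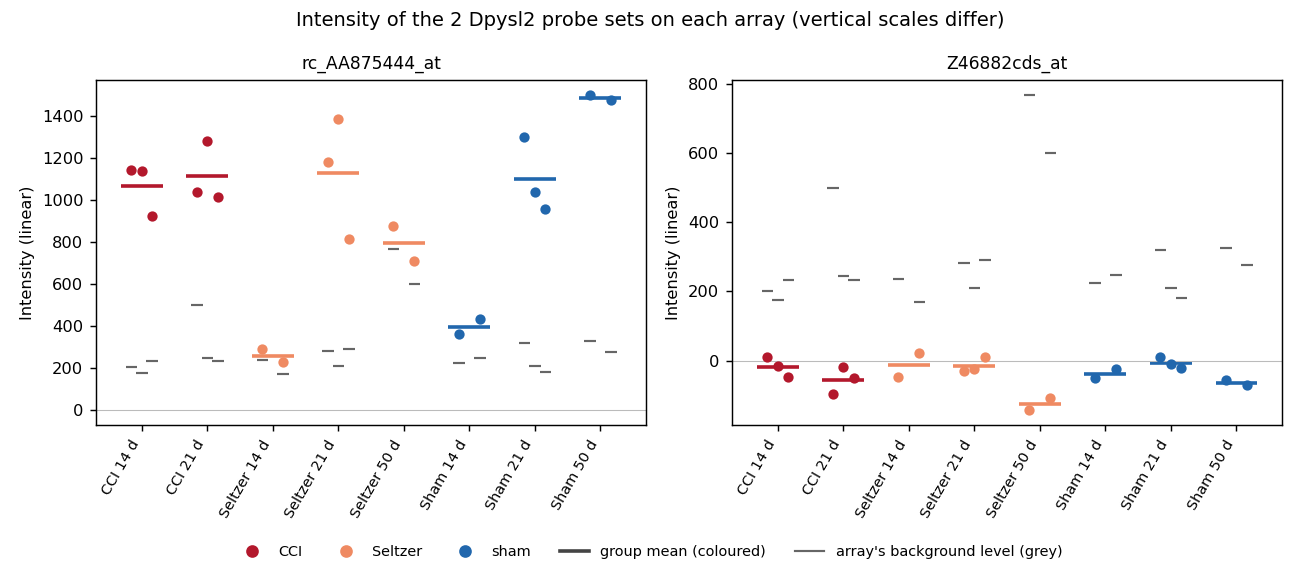
Intensity on a linear scale of the 2 Dpysl2 probe sets on each of 20 arrays, with their own vertical scales, in the 8 groups of surgery and day (d, days). Points are arrays, coloured bars group means and grey dashes each array's background level; for rc_AA875444_at the 4 Seltzer and sham arrays at 14 days lie between 226 and 432, below the other 16, and Z46882cds_at is below background on every array.

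The 14-day step was shared by other genes. The 62 probe sets in which all 4 Seltzer and sham arrays of 14 days lay below the other 16 arrays are 0.709% of 8740, and the 144 in which they lay above them are 1.65%. The 62 include Cox6c, a subunit of cytochrome c oxidase, whose highest value on the 4 arrays was 358 and lowest on the other 16 was 1371. They also include Nrn1, neuritin, a protein that promotes neurite growth (219 against 1963), and both probe sets of Gnb1, a G protein subunit (200.1 against 1214, and 166 against 1199). Of the 62, 31 were above background on all 16 other arrays. The summed level of 6 satellite glia markers was low in Seltzer (3821 to 4166) and sham (3006 to 4527) at 14 days, against 5047 to 6875 in CCI at 14 days, 8921 to 11631 in CCI at 21 days and 5345 or more in every later Seltzer and sham group. Apoe of that list is itself 1 of the 62, and without it the other 5 markers summed to 2088 to 2748 in CCI at 14 days, 1656 to 2206 in CCI at 21 days and 1635 to 1644 in Seltzer at 14 days, against 1266 to 1668 in sham at 14 days, with 1973 or more in every later Seltzer and sham group. Kcnj10, Gja1 and Slc1a3 of the list were above background on no array, and the part of these cells was not tested. Fewer cells of a type and less RNA per cell cannot be told apart in whole ganglia.

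Skeletal muscle markers shared the sign of the day difference of Marcks rc_AA899253_at and Dpysl2 rc_AA875444_at. These probe sets differed between the sham days, with the CCI arrays of both days overlapping. The muscle sums differed between the CCI days, with the sham arrays of both days overlapping. The 10 muscle markers measured summed to 10010 to 11041 in CCI ganglia at 14 days against 4155 to 5038 in sham, and to 1403 to 1921 in CCI ganglia at 21 days against 4595 to 4867 in sham. In the CCI effect at 21 against 14 days 3 of the 10 were lower and 0 higher (8 at an unadjusted p under 0.05), with a median of -1.97. In Seltzer ganglia they summed to 5553 to 5603 at 14 days, and to 3603 to 4612 at 50 days against 1426 to 1786 in sham. At 50 days 4 of 10 rose, where 762 of all 8740 probe sets did. Myh2 of that list was above background on no array, and the part of muscle was not tested.

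Sprr1a, in mouse a marked axotomy-induced gene, did not pass any comparison with sham. Its brighter probe set, L46593cds_at, had 1357, 1199.6 and 1466 in CCI ganglia at 14 days and 1737, 1439 and 1014 at 21 days. Seltzer ganglia had 1191 and 875 at 14 days, 1491, 1362 and 1299 at 21 days and 3329.9 and 2369 at 50 days. Sham ganglia had 978 and 1145 at 14 days, 2093, 1324 and 1032 at 21 days and 1806 and 1539 at 50 days. The groups overlap at 21 days and between Seltzer and sham at 14 days. CCI lay above sham at 14 days by 1.26-fold, and Seltzer above sham at 50 days by 1.68-fold. The mean change in CCI was 0.14 with a 95% interval from -0.27 to 0.54 (limma adjusted p = 0.907), and in Seltzer 0.22 with an interval from -0.14 to 0.58 (limma adjusted p = 0.568). At 50 days the change was 0.75 (SE 0.30, limma adjusted p = 0.117).

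The second Sprr1a probe set, rc_AA891911_at, ranged from 90.8 to 529 and was above background on 4 of 20 arrays. The mean change of this set was 0.71 in CCI (SE 0.35, limma adjusted p = 0.519) and 0.54 in Seltzer (SE 0.31, limma adjusted p = 0.433). Of its values 5 of 6 in CCI and 6 of 7 in Seltzer exceeded the sham mean of their day. With most arrays below background, these sizes depend on the number added. It did not differ from the brighter set in either effect (limma adjusted p = 0.595 and 0.638). Its values in Seltzer at 50 days, 529 and 433, were below the background of those arrays. The summed level of 5 keratinocyte markers was highest in Seltzer at 50 days, at 1351 to 1404, against 588 to 775 in sham at 50 days. As in all marker sums here, negative values counted as 0. The background level was 766 and 599 on those Seltzer arrays and 326 and 277 on the sham arrays of 50 days. Of that list Krt5, Krt10, Krt1 and Ivl were above background on no array. Neither the part of skin cells nor that of the background level was tested.

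**Figure D4:**
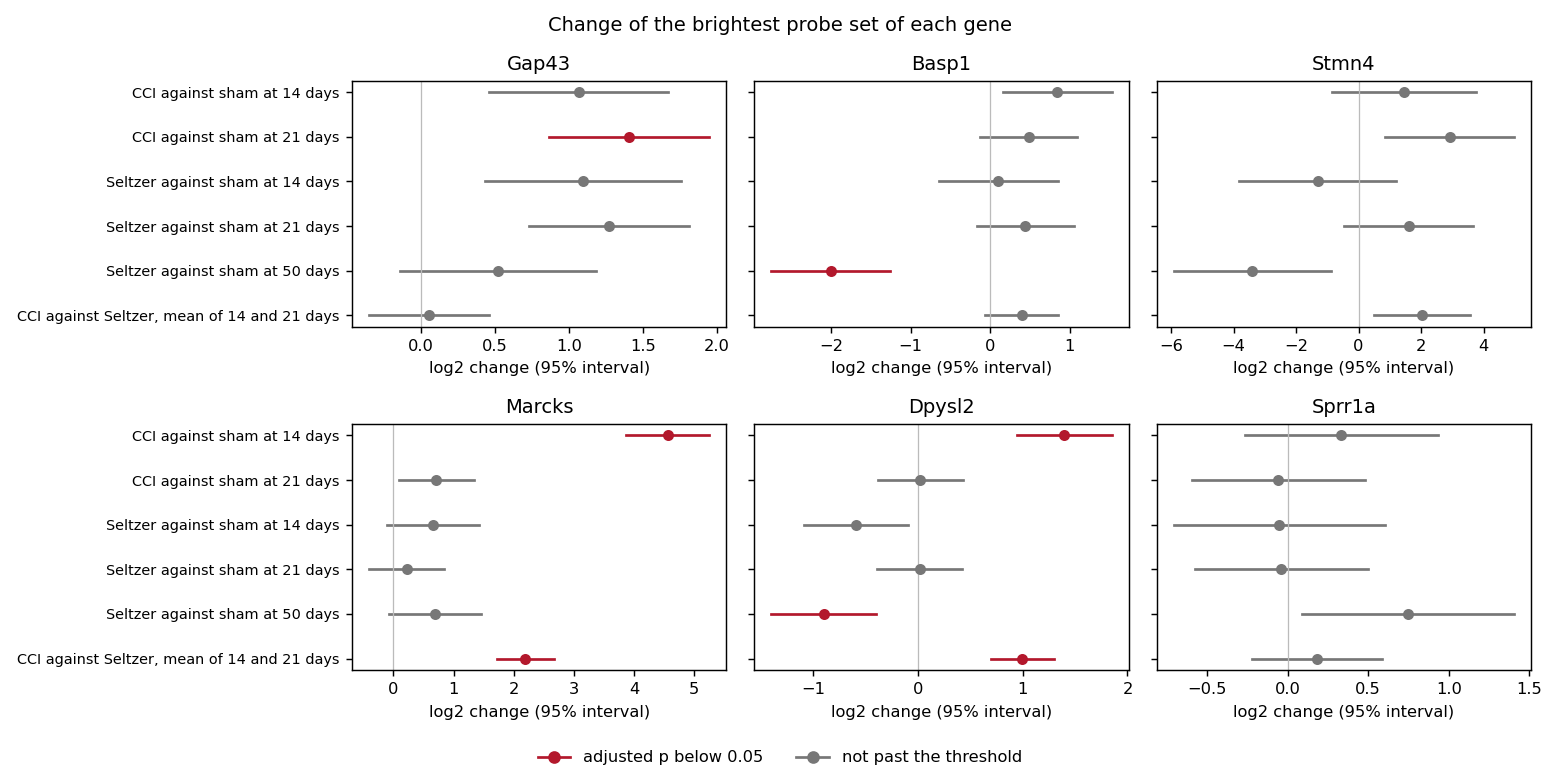
Change of the brightest probe set of each gene as a log2 difference with its 95% interval, for 5 single-day comparisons with sham and for CCI against Seltzer over 14 and 21 days; horizontal scales differ between panels. Red marks an adjusted p below 0.05. The Gap43 estimate lies above 0 in all 5 comparisons with sham and near 0 between the injuries. Of the 5, CCI at 21 days alone passes, and the interval for Seltzer at 50 days includes 0. Marcks and Dpysl2 pass for CCI at 14 days and for CCI against Seltzer. Basp1 and Dpysl2 pass below 0 in Seltzer at 50 days.

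The genes most like each member were sought among 1114 genes above background on at least 10 arrays, by the root mean square difference of centred log2 group means over the 8 groups. Nearest to Gap43 were Camk2d, a calcium/calmodulin-dependent kinase (0.22), Vgf, a neuropeptide precursor (0.25), and Rhoc, a small GTPase (0.27), against a median of 0.73. Nearest to Basp1 were Rack1 (0.27), Gnas (0.28) and Rpl36 (0.33), against 0.88. Nearest to Dpysl2 were Tnc, an extracellular matrix protein (0.14), Slc23a3 (0.26) and Pitx3 (0.29), against 0.92. Nearest to Marcks were Cox6c (0.75), Dcaf6 (0.76) and Nrn1 (0.82), against 2.02. These distances grow with the spread of a member's own group means, so they are not compared between members. The SD of those means was 0.55 for Gap43, 0.81 for Basp1, 0.79 for Dpysl2 and 1.97 for Marcks. Groups on these arrays share samples and processing, so likeness of pattern is a description.

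Genes around the 6 were read from lists. Of 6 relatives measured (Stmn1, Crmp1, Dpysl3, Dpysl4, Nrgn and Pcp4), 0 passed in limma in either model, and 2 in CCI and 0 in Seltzer had an unadjusted p under 0.05. Stmn1, the founding stathmin, had a difference of 0.54 in CCI (limma adjusted p = 0.182) and of 0.16 in Seltzer (limma adjusted p = 0.688). Of 20 kinases, phosphatases and binding partners that act on these proteins, 0 passed in CCI by limma (2 at an unadjusted p under 0.05) and 2 fell in Seltzer: Ppp3ca, the calcineurin subunit that dephosphorylates Gap43 (-0.78, limma adjusted p = 0.0107), and Rac1, a GTPase of actin assembly (-0.50, limma adjusted p = 0.0351). Of this list 0 passed in Seltzer at 14 or at 21 days by limma (2 and 0 at an unadjusted p under 0.05). At 50 days 5 fell and 1 rose, on the arrays with the high GAPDH ratios, where 15.9% of all probe sets passed. The list's medians were -0.16 in CCI and -0.09 in Seltzer, against 0.00 and 0.03 over all probe sets.

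Of 16 genes of the axon cytoskeleton, 2 rose in CCI: Mapt, the microtubule protein tau (0.47, limma adjusted p = 0.0114), and Actb (0.51, limma adjusted p = 0.0229), with a list median of 0.31. In the Seltzer mean Actb fell (-0.38, limma adjusted p = 0.0432), with a median of -0.09. By day, 0 of the 16 fell at 14 and at 21 days by limma, with medians of 0.09 and 0.08. On those days 0 and 2 had an unadjusted p under 0.05 in either direction, and 1 rose at 21 days. At 50 days 6 fell, with a median of -0.64, where 629 of all 8740 probe sets fell. Over all probe sets the Seltzer mean had 383 calls, and 23 without the 50-day arrays. Of 19 genes of axon adhesion and guidance, 0 passed in either model by limma, with medians of -0.04 in CCI and 0.10 in Seltzer, and 0 and 2 had an unadjusted p under 0.05.

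The injury response of sensory neurons, a list of genes chosen with these data known, held the most calls. In CCI 9 of 30 rose and 0 fell, with a median of 0.49, and in Seltzer 10 rose and 0 fell, with a median of 0.38. By day, 3 rose in Seltzer at 14 days and 4 at 21 days, with 0 falling. At 50 days 6 rose and 4 fell, where 15.9% of all probe sets passed. In CCI the neuropeptides Npy (6.04) and Gal (4.48), the transcription factor Atf3 (2.28) and the lectin Reg3b (2.14) led, with limma adjusted p of 0.00131 or less. In Seltzer Npy (4.26), Gal (2.73), the neuropeptide Vip (1.66) and Atf3 (1.59) led, with limma adjusted p of 0.00355 or less. Reg3b and Vip were above background on none of the 20 arrays, and Npy, Gal and Atf3 on 11 each, so the sizes and their order depend on the number added.

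**Figure D5:**
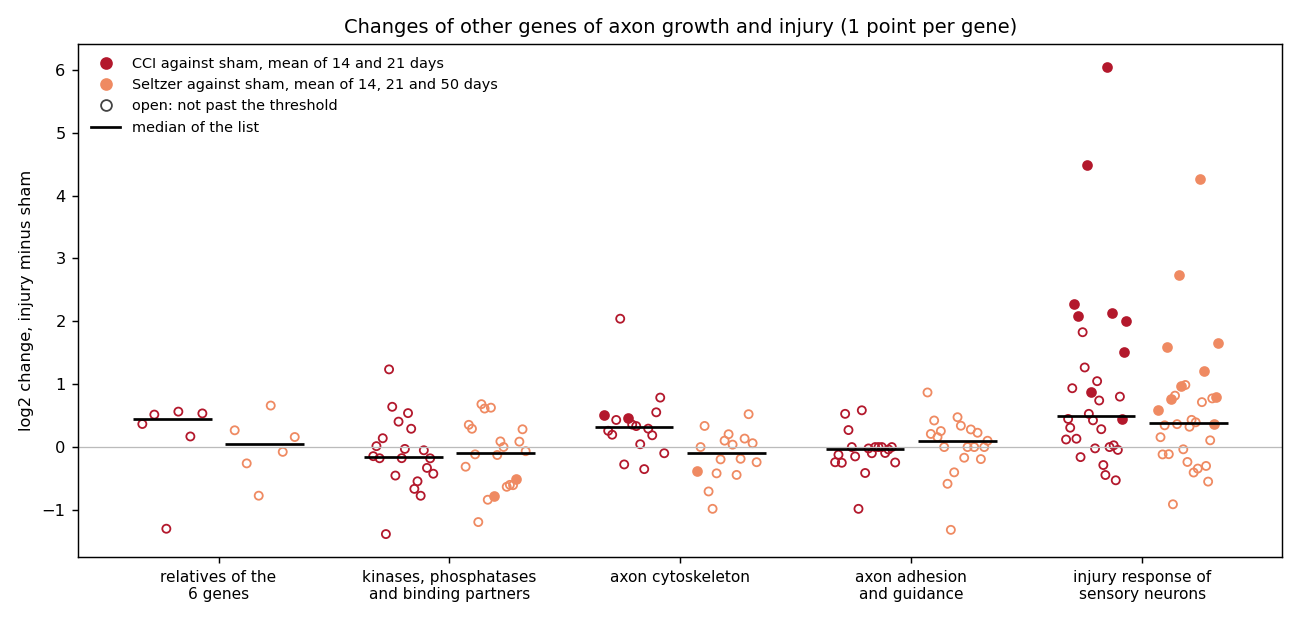
Log2 change of each measured gene of 5 lists, CCI minus sham over 14 and 21 days (left in each pair) and Seltzer minus sham over 14, 21 and 50 days (right); points are genes, filled where the adjusted p is below 0.05, and the black line is the list's median. The injury response list has 9 filled points in CCI and 10 in Seltzer, all above 0, and the other 4 lists have at most 2 in a model.

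Some macrophage markers rose in the same comparisons as Gap43. Of 9 macrophage markers, 3 rose in CCI and 2 in Seltzer, and in Seltzer at 14 days 0 passed by limma (3 at an unadjusted p under 0.05). Of 6 satellite glia, 6 myelinating Schwann cell and 5 repair Schwann cell markers, 0 passed by limma in either model. At an unadjusted p under 0.05 these were 2, 1 and 2 in CCI and 1 each in Seltzer. The summed level of the macrophage markers was 4523 to 5526 in CCI at 14 days and 3860 to 4841 at 21 days, and 3664 to 4683, 2883 to 3439.6 and 1976 to 2308 in Seltzer at 14, 21 and 50 days. In sham it was 2182 to 2574, 1439 to 1957 and 1467 to 1654 at 14, 21 and 50 days. Aif1, C1qb, Csf1r, Ptprc and Itgam of that list were above background on no array, and the part of macrophages in the change of Gap43 was not tested. Of the 13 sensory neuron markers, 0 rose and 3 fell in each model, among them the sodium channel Scn11a (-1.11 in CCI and -0.71 in Seltzer). The same markers summed to 31483 to 48426 in CCI, 29042 to 75138 in Seltzer and 25796 to 85535 in sham, so the groups overlap.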

How the data were processed

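Total RNA of rat dorsal root ganglia was read on 20 arrays in 8 groups. The authors deposited 1 intensity per probe set and array on a linear scale. Which software, background step or scaling made these values is not stated in the labels or the files. The mean of each array, trimmed by 2% at each end, was 150.1 to 150.2, so the arrays look scaled to a common mean. The 59 control probe sets were left out. Each of 8740 probe sets was put on log2(value + 16), with negative values set to 0, and fitted with a mean per group in limma 3.58.1 (R 4.3.3; lmFit, eBayes), two-sided, with Benjamini-Hochberg adjustment. Pairs of probe sets of 1 gene were tested in the same way on their differences (3281 pairs). Ratios are of geometric mean intensities, and "at least" takes the background level where no array of the dimmer group was above it. By the annotation of the platform, 7006 probe sets had 1 gene, 308 several and 1426 none. In lists each gene stood by its brightest probe set, and up to 4 genes per list and direction were named. The members and lists were chosen with earlier results of these data known. Same-numbered Seltzer and sham arrays of 21 days deviated from their group means with correlations of 0.299, 0.226 and 0.11. In no other compared groups with 3 numbers did every pair exceed 0.1. No correlation was taken between differently numbered arrays, so these values cannot show whether the numbers pair arrays. The labels give a lot batch for 3 CCI arrays alone (14-day replicates 2 and 3, 21-day replicate 1), each with its own value, so no test of batch could be made, and no array file or scan time was used. Leaving out 1 of 2 arrays assumes that the other varies like the rest. In simulated data for the CCI comparison (8740 probe sets), 50% of changes of 1 and 79% of changes of 2 on the log2 scale were recovered, and 3.73% of calls were false. The simulated noise was normal and independent, about 1 mean per probe set. It had no floor at 0 and no differences between days or in array quality, so these rates need not hold for the real arrays. Alternatives and their effect are given at the end. Figures were drawn with matplotlib 3.10.9 in Python 3.11.15.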

Additional observations from a re-analysis of the deposited data

Results flagged for a closer look

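The CCI effect differed between 21 and 14 days in 3 of the 13 probe sets by an interaction test in limma. For Marcks rc_AA899253_at it was lower at 21 days by a log2 difference of -3.84 (SE 0.43, limma adjusted p = 0.000207), and for Dpysl2 rc_AA875444_at by -1.37 (SE 0.28, limma adjusted p = 0.0255). For Marcks rc_AA859896_at, which was below background on every array, it was 3.33 higher (SE 0.51, limma adjusted p = 0.00306), a size set by the number added. In the first 2 probe sets the CCI arrays of both days overlap, and the sham arrays of 14 days lie below those of 21 days.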

How the results depend on the processing

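The 32 alternatives were the number added (1 or 64), quantile normalization, median centring, the replicate block, a fit of only the groups compared, a filter that drops the dimmest 33.3%, trend and robust eBayes, array weights, all sham arrays as 1 group, the Seltzer 50-day arrays left out, the 21-day replicate 1 arrays left out together (added after the data were seen), and each of 20 arrays left out. Under the replicate block the calls were 3 in the CCI mean, 2 in the Seltzer mean and 3 in Seltzer at 50 days, where the block added 1, and no member call was lost. Of single probe-set results, 814 of the values kept their direction and side of the threshold, 63 lost and 5 gained a call. Turned in sign were Sprr1a in the CCI mean (-0.0182) with all sham as 1 group, and Stmn4 (0.15), Basp1 (0.27) and Sprr1a (-0.045) in the Seltzer mean without the 50-day arrays. The day difference of the CCI effect could not be followed with all sham as 1 group, since the sham terms cancel. The values that setting gave, 0.0571 for Dpysl2 and 0.164 for Marcks, are CCI at 21 days minus CCI at 14 days. With all sham as 1 group the counts were 1 in the CCI mean, 1 in the Seltzer mean, 1 in CCI at 14 and at 21 days, 0 in CCI against Seltzer, 0 in CCI at 21 against 14 days and 0 in the CCI pairs. In that fit differences between the sham days count as spread. CCI against Seltzer takes no sham value into its estimates, which stayed at 2.195 for Marcks and 0.9973 for Dpysl2. Their limma adjusted p rose to 0.765 and 0.653. The Seltzer mean count was also 1 with median centring, the dimmest left out, only the groups compared, and without the 50-day arrays. CCI at 14 days had 6 with array weights and 6 without the 21-day replicate 1 arrays. CCI at 21 days had 1 with 64 added and with median centring and 0 with only the groups compared. Seltzer had 1 at 14 days with array weights and without the replicate 1 arrays, 1 at 21 days with 1 added and without those arrays, 2 at 21 days with array weights, and 6 at 50 days without those arrays. The CCI pairs were 1 with the dimmest left out and 3 with only the groups compared, and the Seltzer pairs 3 with 1 added or array weights and 1 with quantile normalization or without the replicate 1 arrays. With 1 array left out, the count ran from 2 to 4 in the CCI mean, 1 to 3 in the Seltzer mean, 2 to 4 in CCI at 14 days, 1 to 2 at 21 days, 0 to 1 in Seltzer at 21 days, 1 to 3 at 50 days and 0 to 3 in the Seltzer pairs. Otherwise the cause of these shifts was not tested. The number of arrays and the background level limit every value here.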
